A study of Arabidopsis thaliana with 9 samples.

Results

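The comparison described here set 3 libraries labelled thp1-5 against 3 libraries of Col, the Arabidopsis thaliana wild type, out of 9 libraries in the series, across all genes. Both groups were whole seedlings, 14 days old, grown without treatment on half-strength MS medium with 1% sucrose at 22 °C under 16 h of light and 8 h of dark. The thp1-5 group is named for an allele of THP1 that the labels do not describe further. Polyadenylated RNA was sequenced as single-end reads of 150 nt, and the deposited unit was the read count per gene. THP1 is a subunit of TREX-2, a complex at the inner face of the nuclear pore in which a large SAC3-type scaffold protein holds THP1 and smaller subunits. TREX-2 is best known from yeast, where it couples transcription to the export of mRNA, and the series title ties the Arabidopsis complex and the pore to microRNA biogenesis. In whole seedlings a lower level of a transcript can come from fewer cells of a type or from less RNA per cell, and these cannot be told apart.

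Total counts ran from 12.8 M to 16.7 M per library. Within a group, pairs of libraries varied 1.51 to 1.92 times as much as counting alone would give, against 34.6 to 43.1 times for a Col library paired with a thp1-5 library. The 10 most abundant loci took 9.22 to 9.41% of the counts in Col and 6.85 to 7.05% in thp1-5. Whether the 3 libraries of a group stem from separate cultures is not stated in the labels, so the p-values reflect sample-to-sample spread that may be technical only. Levels are given as CPM, counts scaled to library size with TMM factors, with SD over 3 libraries, and differences as log2 fold changes of thp1-5 against Col with an approximate SE. A gene was called, and is said to have risen or fallen, at a Benjamini-Hochberg adjusted p under 0.05 by edgeR's quasi-likelihood test.

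The gene named by the genotype was examined first. THP1 (AT2G19560, EER5 in the reference) stood at 11.6, 12.1 and 14.1 CPM in Col and 11.6, 11.1 and 12.7 CPM in thp1-5, and its log2 fold change of −0.10 ± 0.11 was not called (edgeR adjusted p = 0.413); scaled by total counts it was 0.18, also without a call. The groups overlapped, so the transcript level neither marks nor contradicts the label. SAC3A (AT2G39340), which encodes a SAC3-type protein, measured 67.3, 59.4 and 66.3 CPM in Col and 36.6, 39.2 and 40.1 CPM in thp1-5 and fell by 0.73 (SE 0.06). SAC3B (AT3G06290) measured 47.2, 47.0 and 46.6 CPM in Col and 30.8, 32.4 and 36.3 CPM in thp1-5 and fell by 0.50 (SE 0.06), whereas SAC3C (AT3G54380) gave −0.17 ± 0.10 without a call.

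Of 22400 genes tested, 14298 were called (63.8%), 7179 of them higher in thp1-5 (32.0%) and 7119 lower (31.8%). Most calls were small. The median size of a called change was 0.49 on the log2 scale, and 60.4% of the called genes, 8630 in number, changed by less than 1.5-fold. At least 2-fold were 1109 higher (4.95%) and 1014 lower (4.53%), at least 4-fold 190 and 147, at least 8-fold 51 and 32, and at least 32-fold 12 and 4. Both ways together these 2-fold changes were 9.48% of the genes tested. The libraries of the groups did not overlap for 14658 genes (65.4%), 7357 of them higher (32.8%) and 7301 lower (32.6%). The median over all tested genes was 0.01, but it depends on the scaling: scaled by total counts it was 0.30, and 12534 genes were higher (56.0%) and 3615 lower (16.1%). Total counts left the call and direction of 2091 of the 2123 such 2-fold genes in place, while 540 of all calls took the opposite direction and 2964 were lost. Counts of gene groups below are therefore read against 32.0% higher and 31.8% lower, and the count with total counts stands beside those whose balance it moved by over 10 points. These shares are not matched for abundance. Among protein-coding loci in the highest of 5 bins of mean CPM, 24.3% were higher and 58.7% lower. In the lowest bin 29.3% were higher and 15.9% lower. The part of abundance in the counts of gene groups was not tested.

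**Figure D1:**
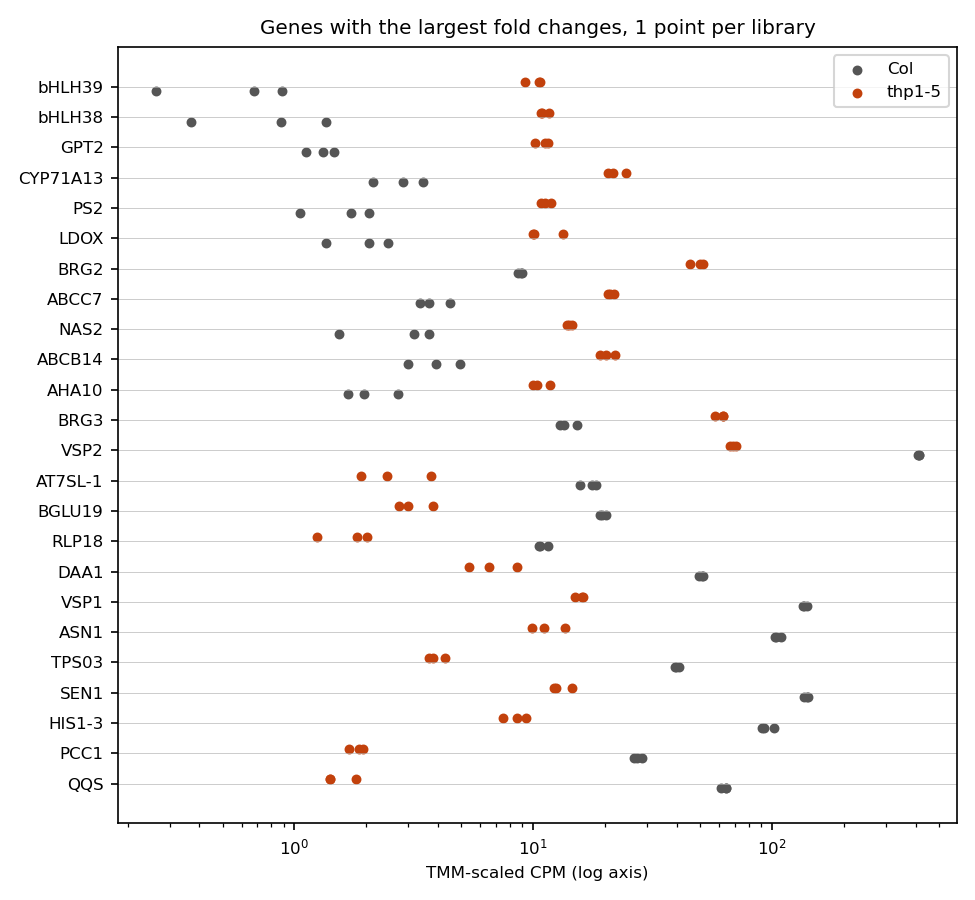
TMM-scaled CPM (log axis) of 12 rising and 12 falling genes, those of the largest fold change under the rule for named genes, with 1 point per library for Col and thp1-5. The 3 libraries of a group sit close together and the groups do not overlap for any of the 24 genes, which was a condition of their choice.

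The rising genes with the largest fold changes, among those with a symbol and at least 10 CPM, held several that respond to nutrient supply. bHLH39 (AT3G56980), a transcription factor of the iron deficiency response, measured 0.264, 0.883 and 0.675 CPM in Col and 10.6, 9.26 and 10.7 CPM in thp1-5, a 16.0-fold rise. Its neighbour bHLH38 (AT3G56970) measured 0.881, 0.368 and 1.35 CPM in Col and 11.6, 10.9 and 10.8 CPM in thp1-5, with 35.7% of its exonic bases shared with another locus. NAS2 (AT5G56080), which encodes a synthase of the metal chelator nicotianamine, measured 3.17, 1.54 and 3.67 CPM in Col and 13.9, 14.5 and 14.1 CPM in thp1-5. Every thp1-5 library lay above every Col library for these genes, which was a condition of their choice. PS2 (AT1G73010), an inorganic pyrophosphatase gene induced by phosphate starvation, measured 1.06, 2.06 and 1.72 CPM in Col and 11.9, 11.2 and 10.8 CPM in thp1-5. GPT2 (AT1G61800), a plastid glucose 6-phosphate transporter, measured 1.32, 1.47 and 1.12 CPM in Col and 10.2, 11.5 and 11.2 CPM in thp1-5. CYP71A13 (AT2G30770), an enzyme of camalexin synthesis, measured 3.44, 2.13 and 2.85 CPM in Col and 20.5, 24.4 and 21.5 CPM in thp1-5, and 22.1% of its exonic bases are shared.

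The remaining genes of this set were of the flavonoid pathway, transporters and ubiquitin ligases. LDOX (AT4G22880), the dioxygenase that forms anthocyanidins, measured 2.47, 2.06 and 1.35 CPM in Col and 10.1, 13.3 and 9.98 CPM in thp1-5. AHA10 (AT1G17260), a proton pump known from the seed coat, measured 1.67, 2.72 and 1.95 CPM in Col and 10.4, 10 and 11.8 CPM in thp1-5. BRG2 (AT1G79110) and BRG3 (AT3G12920), genes of 1 family of RING-type ubiquitin ligases, rose 5.52-fold and 4.41-fold. BRG3 measured 15.2, 13.5 and 12.9 CPM in Col and 58.0, 62.6 and 62.2 CPM in thp1-5, so the thp1-5 values differed from each other by far less than from Col. The ABC transporter genes ABCC7 and ABCB14, the second a malate carrier, rose 5.45-fold and 5.09-fold. By edgeR the highest adjusted p among these 12 genes, which were chosen from called genes, was 9.02e-27.

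The falling genes of the same rule included 2 dark-induced genes and 3 known for their induction by jasmonate. QQS (AT3G30720), an orphan gene that affects starch content, measured 61.3, 64.5 and 64.5 CPM in Col and 1.41, 1.81 and 1.41 CPM in thp1-5, a 40.4-fold fall. SEN1 (AT4G35770), a gene induced by darkness and senescence, measured 140, 142 and 136 CPM in Col and 14.5, 12.5 and 12.2 CPM in thp1-5. ASN1 (AT3G47340), the dark-induced asparagine synthetase, measured 109, 103 and 104 CPM in Col and 11.1, 9.88 and 13.6 CPM in thp1-5. The 3 thp1-5 values of both dark-induced genes lay more than 7-fold below the lowest Col value. The next 3 are known for their induction by jasmonate, while of 10 tested JAZ genes, repressors of the jasmonate response, 3 rose and 3 fell (6 and 2 with total counts). VSP2 (AT5G24770), an abundant vegetative storage protein, measured 412, 409 and 413 CPM in Col and 70.5, 68.8 and 67.0 CPM in thp1-5, and VSP1 (AT5G24780) measured 140, 135 and 137 CPM in Col and 16.2, 15 and 16.0 CPM in thp1-5. TPS03 (AT4G16740), an ocimene synthase, measured 39.6, 40.7 and 39.4 CPM in Col and 3.79, 4.29 and 3.66 CPM in thp1-5.

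PCC1 (AT3G22231), a small protein gene under pathogen and circadian control, measured 26.4, 27.2 and 28.7 CPM in Col and 1.93, 1.86 and 1.69 CPM in thp1-5. HIS1-3 (AT2G18050), a linker histone known for its induction by drought, measured 93.1, 102 and 90.9 CPM in Col and 9.29, 8.52 and 7.45 CPM in thp1-5. AT7SL-1 (AT4G02970), an RNA of the signal recognition particle, measured 17.6, 15.7 and 18.3 CPM in Col and 2.45, 3.73 and 1.9 CPM in thp1-5. DAA1 and BGLU19 fell 7.28-fold and 6.20-fold, and RLP18, a locus with a receptor-like protein symbol that the reference types as a transcribed pseudogene, fell 6.56-fold. By edgeR the highest adjusted p among the 12 falling genes, also chosen from called genes, was 2.51e-30.

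Genes were also ranked by the difference in mean CPM, a scale that is not per length and favours abundant transcripts. CAB1 (AT1G29930), a chlorophyll a/b-binding protein of the photosystem II antenna, measured 23700, 23200 and 23700 CPM in Col and 13200, 12600 and 12600 CPM in thp1-5. LHCA4, of the photosystem I antenna, measured 8380, 8300 and 8370 CPM in Col and 5340, 5310 and 5280 CPM in thp1-5, and LHCB5 fell from a mean of 7280 ± 52.4 to 4480 ± 3.7 CPM. CAB2 and CAB3 fell by 0.59 and 0.85. They resemble CAB1 closely enough that the authors' counting could divide their reads or count some at more than 1 locus. The small subunit gene of Rubisco, RBCS1A, measured 9330, 8990 and 9140 CPM in Col and 6530, 6230 and 6280 CPM in thp1-5. The mean of each of these 6 genes fell by 2580 CPM or more, whereas the largest rise was that of RAP2.4 (AT1G78080), an AP2/ERF transcription factor gene, at 84.4, 83.6 and 79.4 CPM in Col and 324, 324 and 328 CPM in thp1-5. GAPC1, cytosolic glyceraldehyde 3-phosphate dehydrogenase, followed with 523, 486 and 493 CPM in Col and 728, 698 and 702 CPM in thp1-5, then MTO3, an S-adenosylmethionine synthetase, at 1.55-fold, the expansin gene EXPA1 at 1.45-fold, the mitochondrial ADP/ATP carrier gene AAC1 at 1.24-fold and BBX15 at 1.47-fold.

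A pair of loci had at most 3 counts over the Col libraries and at least 90 over the thp1-5 libraries. HAC2 (AT1G67220), a histone acetyltransferase of the CBP family, had 1, 0 and 0 counts in Col and 38, 71 and 46 in thp1-5, 131 times as many per library size (95% exact counting limits 23.1 and 5200). AT1G47920, annotated as a member of the RNI-like superfamily, had 1, 0 and 1 counts in Col and 60, 67 and 49 in thp1-5, 74.2 times as many (limits 20.2 and 618). These limits cover counting error alone. Its neighbours AT1G47915, an F-box family gene, and AT1G47930 rose as well. AT1G47915 had 0 counts in Col and 42 in thp1-5 over the libraries, and AT1G47930 measured 0.176, 0.294 and 0.075 CPM in Col and 2.38, 2.14 and 1.55 CPM in thp1-5.

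Promoters were read from the TAIR10.1 genome, the RefSeq assembly, for genes at the ends of the range of fold change or of CPM difference. LHCA4 was ranked by its CPM difference and fell by less than 2-fold. The sources used here do not name the build behind the counts, but the exonic length in the files equals that of the TAIR10.1 annotation for 99.51% of 37051 loci. The windows hold motifs whose shares differ between rising and falling genes, described further on, and the genes were picked for that after their values were seen. The sequences run 5′ to 3′ on the gene's strand and end at the base before its annotated start. In the first 3, of falling genes, capitals mark the I-box GATAAG, a motif of light-regulated promoters, and the G-box CACGTG, a site of bZIP and bHLH factors, on either strand. In the other 3, of rising genes, capitals mark the W-box TTGACC or TTGACT, bound by WRKY factors, and in PS2 also P1BS, GNATATNC, bound by the phosphate response factor PHR1.
SEN1 (chr4:16944728-16944877, plus strand): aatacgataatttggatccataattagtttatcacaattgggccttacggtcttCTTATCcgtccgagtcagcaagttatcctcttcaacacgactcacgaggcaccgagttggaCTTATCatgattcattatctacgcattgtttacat
ASN1 (chr3:17441432-17441691, minus strand): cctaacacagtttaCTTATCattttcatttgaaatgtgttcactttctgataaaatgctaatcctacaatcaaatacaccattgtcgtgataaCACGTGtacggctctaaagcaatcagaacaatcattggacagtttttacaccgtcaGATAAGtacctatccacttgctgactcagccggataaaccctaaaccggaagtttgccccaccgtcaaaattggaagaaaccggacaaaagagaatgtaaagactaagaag
LHCA4 (chr3:17495034-17495183, minus strand): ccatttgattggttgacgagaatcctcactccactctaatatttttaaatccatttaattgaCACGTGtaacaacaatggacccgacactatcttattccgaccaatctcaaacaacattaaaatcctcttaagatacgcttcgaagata
LDOX (chr4:12006210-12006409, minus strand): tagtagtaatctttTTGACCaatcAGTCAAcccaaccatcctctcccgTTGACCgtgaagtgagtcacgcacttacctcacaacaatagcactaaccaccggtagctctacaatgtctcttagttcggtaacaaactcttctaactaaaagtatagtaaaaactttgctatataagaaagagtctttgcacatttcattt
PS2 (chr1:27466349-27466588, minus strand): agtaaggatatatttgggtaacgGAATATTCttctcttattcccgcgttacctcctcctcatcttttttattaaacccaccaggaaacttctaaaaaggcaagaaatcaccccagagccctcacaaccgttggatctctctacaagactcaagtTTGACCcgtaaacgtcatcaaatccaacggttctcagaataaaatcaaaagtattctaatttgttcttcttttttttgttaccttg
BRG2 (chr1:29758860-29759029, plus strand): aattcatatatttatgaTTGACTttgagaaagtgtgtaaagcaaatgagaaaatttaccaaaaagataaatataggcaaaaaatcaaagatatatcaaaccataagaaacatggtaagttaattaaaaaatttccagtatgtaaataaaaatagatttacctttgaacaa
The I-boxes of SEN1 begin 96 and 35 bases upstream of the start and those of ASN1 246 and 111 bases, with its G-box at 167. The G-box of LHCA4 begins at 88 bases. LDOX has 3 W-boxes, at 186, 176 and 152 bases, and BRG2 has 1 at 153. In PS2 the W-box is at 86 and P1BS at 217 bases. A match is a match of letters in this window and no evidence of binding.

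Genes of carbon fixation and its side reactions fell as a group. All 10 tested genes of photorespiration, the pathway that recovers carbon after Rubisco fixes oxygen, fell, with a median of −0.64. GGT1, the glyoxylate aminotransferase of peroxisomes, measured 2900, 2850 and 2830 CPM in Col and 1090, 1090 and 1090 CPM in thp1-5, and SHM1, the mitochondrial serine hydroxymethyltransferase, measured 2760, 2740 and 2770 CPM in Col and 1360, 1380 and 1380 CPM in thp1-5. Catalase CAT2 and the aminotransferase AGT fell by 0.73 and 0.72. Of 18 tested Calvin cycle genes 17 fell, with a median of −0.42, and total counts changed this to 12 lower and 5 higher. The epimerase gene RPE went from 800 ± 6.75 to 440 ± 6.88 CPM and PGK1 from 1480 ± 10.7 to 903 ± 8.07 CPM.

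**Figure D2:**
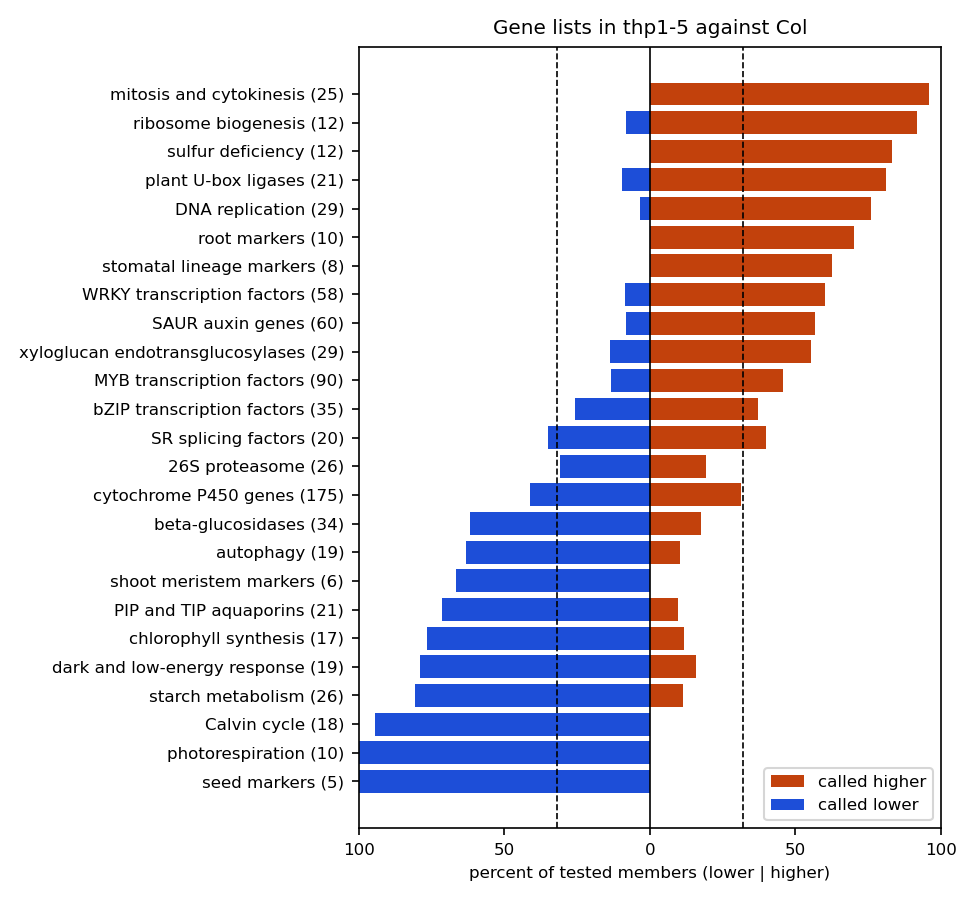
Percent of tested members of each gene list called higher (right) and lower (left) in thp1-5, with the number of tested members beside the name and dashed lines at the 32.0% and 31.8% of all genes tested. Photorespiration, Calvin cycle and seed markers extend to the left, and mitosis, ribosome biogenesis and sulfur deficiency to the right.

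In chlorophyll synthesis 13 of 17 genes fell and 2 rose (median −0.29), a balance of 8 higher and 8 lower with total counts. CHLI1, a subunit of magnesium chelatase, stood apart with 421, 425 and 424 CPM in Col and 139, 146 and 144 CPM in thp1-5, a 2.95-fold fall, while its copy CHLI2 had 0.02 without a call. PORA, a protochlorophyllide oxidoreductase of dark-grown seedlings, fell by 1.32, CHLD (ALB1) by 0.67 and CHLM by 0.62. Of 26 starch genes 21 fell and 3 rose (median −0.49; 18 lower and 6 higher with total counts). The branching enzyme gene SBE2.1 measured 183, 187 and 175 CPM in Col and 63.2, 65.2 and 64.9 CPM in thp1-5, and the beta-amylase gene BAM5 fell by 2.59. The maltose exporter MEX1 (RCP1) and the beta-amylase BAM3 (CT-BMY) fell by 0.94 and 0.79, so genes of starch synthesis, breakdown and export were among those that fell.

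Genes induced by darkness or low energy fell too. Of 19 tested, 15 fell and 3 rose, with a median of −0.82, and 6 fell at least 2-fold. Beside SEN1 and ASN1 these included BCAT-2, a branched-chain aminotransferase, at 12.1, 12.2 and 10.9 CPM in Col and 2.16, 2.09 and 3.16 CPM in thp1-5, and the dormancy-associated gene DYL1, at 179, 174 and 180 CPM in Col and 41.3, 38.6 and 37.0 CPM in thp1-5. Autophagy genes shared this direction, with 12 of 19 lower and 2 higher (median −0.37; 7 lower and 5 higher with total counts). The ubiquitin-like ATG8B went from 21.2 ± 1.75 to 9.65 ± 0.104 CPM, and ATG12A, ATG8I (APG8H) and ATG8F fell by 0.87, 0.83 and 0.76. Of 17 nitrogen assimilation genes 10 fell and 6 rose (6 lower and 9 higher with total counts). Nitrate reductase NIA2 went from 941 ± 17.8 to 528 ± 14.2 CPM and the plastid glutamine synthetase GS2 from 1860 ± 14.8 to 1130 ± 2.92 CPM, whereas the ammonium transporter gene AMT1;2 rose by 0.79.

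Sulfur deficiency genes rose in 10 of 12 cases, with a median of 1.13 and 7 rises of at least 2-fold. SDI1 measured 9.43, 9.78 and 10.9 CPM in Col and 37.8, 37.1 and 37.5 CPM in thp1-5, and the glutathione-degrading cyclotransferase GGCT2;1 (AT5G26220) measured 4.05, 4.19 and 4.87 CPM in Col and 16.9, 17.7 and 17.3 CPM in thp1-5. LSU3, of a family named for response to low sulfur, rose by 1.71, and BGLU28 by 1.61. SULTR1;1 at −0.21 and SULTR4;2 at 0.00 did not pass the test. Copper homeostasis genes moved both ways, 8 lower and 5 higher of 14 (5 lower and 6 higher with total counts). The copper reductase gene FRO4 measured 46.4, 44.0 and 45.8 CPM in Col and 15.5, 16.7 and 14.3 CPM in thp1-5, the iron superoxide dismutase gene FSD1 went from 1240 ± 6.53 to 691 ± 17.6 CPM and the metal transporter gene YSL2 rose by 0.77.

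Cell division genes were higher. Of 25 genes of mitosis and cytokinesis 24 rose (median 0.61), and the other, CYCB2;1, had 0.40 without a call. TPX2, a spindle assembly factor, measured 11.1, 11.9 and 13.9 CPM in Col and 31.4, 27.5 and 29.5 CPM in thp1-5, and the cyclin gene CYCB1;2 (CYC1BAT) measured 14.6, 14.8 and 16.4 CPM in Col and 32.9, 36.6 and 31.9 CPM in thp1-5. CYCB2;2 and CYCB1;1 rose by 1.09 and 0.95. Of 29 DNA replication genes 22 rose and 1, ORC4, fell (median 0.49). The call of ORC4 was lost with total counts, at −0.18 and an adjusted p of 0.274 by edgeR. The licensing factor CDT1A measured 12.3, 11.3 and 11.4 CPM in Col and 25.4, 25.9 and 25.2 CPM in thp1-5, and the origin recognition genes ORC6, ORC1B and ORC2 rose by 1.05, 1.04 and 0.94 from levels of 1.72 to 5.22 CPM. Ribosome biogenesis followed, with 11 of 12 genes higher (median 0.33), among them NUC-L2, a nucleolin gene, by 1.09 and PUM24 by 0.78.

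Marker genes were read for the make-up of the tissue. Of 8 stomatal lineage markers 5 rose, with a median of 0.92: SPCH, the factor that starts the lineage, measured 3.0, 2.35 and 3.82 CPM in Col and 8.4, 6.94 and 6.89 CPM in thp1-5, the peptide gene EPF2 rose by 1.59, MUTE by 1.25 and the receptor gene TMM by 1.14. FAMA (FMA in the reference), EPF1 and POLAR (AT4G31805), at 0.03, 0.25 and 0.33, did not pass, and mature guard cell markers gave 1 higher and 2 lower of 4 (2 and 0 with total counts), with sizes up to 0.30. The summed level of the 8 lineage markers was 51.4 to 54.3 CPM in Col and 76.4 to 80.8 CPM in thp1-5. Root markers rose in 7 of 10 cases (median 0.56). WOX5 rose by 2.03 from 0.316 CPM and the root hair expansin gene EXPA7 by 1.00, while the endodermal gene CASP1 at −0.16 and the stem cell genes PLT1 at 0.27 and PLT2 at 0.03 did not pass. Their summed level was 109.0 to 115.0 CPM in Col and 144.0 to 154.0 CPM in thp1-5.

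Shoot meristem markers went the other way, with 4 of 6 tested lower. STM, which keeps the meristem undifferentiated, measured 6.96, 8.75 and 7.12 CPM in Col and 3.34, 3.16 and 3.59 CPM in thp1-5, and the receptor kinase gene CLV1 went from 101 ± 4.39 to 60.7 ± 1.26 CPM. Seed markers fell in all 5 tested cases (median −2.20). The cruciferin gene CRU1 (CRA1) measured 48.5, 53.2 and 47.6 CPM in Col and 10.9, 10.1 and 11.7 CPM in thp1-5, OLEO2 went from 5.55 ± 0.653 to 1.02 ± 0.0936 CPM and EM6 (GEA6) from 1.64 ± 0.416 to 0.266 ± 0.188 CPM. Of 8 late embryogenesis abundant genes 6 fell (4 lower and 2 higher with total counts), LEA18 by 1.87 and LEA7 by 1.69. Of the phloem markers SUC2, the sucrose carrier of companion cells, fell by 0.79 and SEOR1, a sieve element protein, by 0.66, with 3 of 6 lower and 1 higher (2 and 2 with total counts). Xylem markers gave 3 lower and 1 higher of 7 (0 lower and 1 higher with total counts) and trichome markers 2 higher and 1 lower of 6 (3 higher and 0 lower). The part of tissue make-up in the other results was not tested.

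In the hormone lists described here more genes rose than fell. Of 60 tested SAUR genes, small auxin-responsive transcripts, 34 rose and 5 fell (median 0.50). AT1G75580 of this family measured 1.32, 1.25 and 1.35 CPM in Col and 6.54, 7.28 and 6.96 CPM in thp1-5, and AT5G10990, AT5G20820 and AT1G17345 rose by 2.88, 2.14 and 1.82 from 0.276, 0.316 and 0.283 CPM. Gibberellin genes gave 13 higher and 3 lower of 20. GA3OX1, which forms active gibberellin, measured 1.67, 1.69 and 1.57 CPM in Col and 3.94, 4.85 and 4.57 CPM in thp1-5, GA2OX8, which inactivates it, rose by 1.05 and the DELLA repressor genes RGL3 and RGL1 fell by 1.03 and 0.69. In brassinosteroid genes 11 of 18 rose and 5 fell: the early enzyme DET2 fell by 1.01 and the late enzymes BR6OX2 and BR6OX1 rose by 0.80 and 0.75. Without Col replicate 3 or thp1-5 replicate 1 the call of BR6OX1 was lost (0.56 and 0.61). Cytokinin genes gave 12 higher and 5 lower of 26 (20 and 2 with total counts), with CRF2 up by 1.16 and the degrading enzyme gene CKX4 down by 0.89. The karrikin response repressor SMAX1 (AT5G57710) measured 123, 125 and 125 CPM in Col and 223, 219 and 222 CPM in thp1-5, and 4 of 10 genes of that list rose and 1 fell (8 and 0 with total counts).

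Transcription factor families differed in balance. Of 58 tested WRKY genes, many of them induced in defence, 35 rose and 5 fell (median 0.38). WRKY18 measured 4.85, 4.12 and 3.52 CPM in Col and 11.4, 11.7 and 10.1 CPM in thp1-5, WRKY22 rose by 1.43, WRKY48 by 1.42 and WRKY49 by 1.53. Of 19 ERF genes of ethylene and stress response 13 rose and 2 fell; ERF5 measured 3.79, 4.93 and 3.97 CPM in Col and 10.9, 10.9 and 9.98 CPM in thp1-5 and ERF11 rose by 2.05 from 0.429 CPM. Of 90 MYB genes 41 rose and 12 fell (58 and 4 with total counts). MYB30 measured 15.3, 17.4 and 16.8 CPM in Col and 37.0, 37.5 and 41.6 CPM in thp1-5 and the flavonol regulator MYB111 rose by 2.15. NAC genes gave 29 higher and 14 lower of 74 (42 and 5 with total counts), with NAC044 up by 2.34 and the senescence factor NAP at 10.7, 11.3 and 12.7 CPM in Col and 2.23, 2.82 and 3.66 CPM in thp1-5. Among 20 bHLH-numbered genes 13 rose and 4 fell (14 and 1 with total counts), BHLH100 by 5.21 and BHLH101 by 1.29.

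The bZIP family was balanced at 13 higher and 9 lower of 35 (21 and 3 with total counts), with BZIP9 at 53.5, 54.9 and 53.2 CPM in Col and 23.8, 23.5 and 23.6 CPM in thp1-5. Calmodulin-like genes gave 6 higher and 3 lower of 12 (7 and 0 with total counts), with TCH3, a touch-induced gene, at 10.2, 10.4 and 8.62 CPM in Col and 38.4, 35.9 and 37.0 CPM in thp1-5 and TCH2 up by 1.32, and calcium-dependent kinases gave 11 higher and 11 lower of 29 (17 and 2 with total counts).

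Families of defence and secondary metabolism split. Of 34 beta-glucosidases, enzymes that release glucose from stored glycosides, 21 fell and 6 rose (median −0.51; 18 and 11 with total counts), and 9 fell at least 2-fold. BGLU45 went from 6.23 ± 1.01 to 0.455 ± 0.152 CPM and BGLU17 from 6.31 ± 0.668 to 1.81 ± 0.4 CPM. Of 175 cytochrome P450 genes 72 fell and 55 rose (41 and 85 with total counts), with CYP93D1, CYP712A2 and CYP706A3 down by 2.92, 2.89 and 2.72. Of 21 tested PUB genes, ubiquitin ligases with a U-box, 17 rose and 2 fell; PUB29 measured 9.52, 10.7 and 12.4 CPM in Col and 24.0, 24.0 and 26.7 CPM in thp1-5, and PUB22 and PUB26 rose by 1.05 and 0.86. Cysteine-rich receptor-like kinases gave 12 higher and 10 lower of 34 (17 and 5 with total counts), with CRK30 at 0.441, 0.441 and 0.6 CPM in Col and 3.49, 4.4 and 4.22 CPM in thp1-5. PDF defensin genes gave 3 lower and 2 higher of 8 (2 and 4 with total counts). PDF2.1 measured 38.9, 37.0 and 38.8 CPM in Col and 13.0, 12.2 and 12.9 CPM in thp1-5, PDF1.2 fell by 2.42 from 1.32 CPM, and LCR67 (PDF1.1) rose from 1 count over the Col libraries to 44 over the thp1-5 libraries. Of 17 genes of oxidative stress response 6 rose and 8 fell (9 and 5 with total counts). Its zinc finger genes were among those that rose: ZAT10 (STZ) measured 3.09, 2.35 and 3.3 CPM in Col and 11.3, 9.03 and 10.2 CPM in thp1-5 and ZAT12 (RHL41) rose from 1.41 ± 0.402 to 3.96 ± 0.483 CPM.

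Genes that shape the wall and move water also differed. Of 29 XTH genes, which cut and rejoin xyloglucan, 16 rose and 4 fell. XTH12 measured 3.0, 2.06 and 1.5 CPM in Col and 9.74, 8.35 and 8.65 CPM in thp1-5 and XTH13, its neighbour, rose by 1.69, whereas XTH25 measured 2.64, 1.47 and 1.8 CPM in Col and 0.0, 0.0564 and 0.0703 CPM in thp1-5 and fell. Alpha-expansins, which loosen walls, gave 10 higher and 1 lower of 18. Of 21 aquaporin genes with PIP and TIP symbols, 15 fell and 2 rose (median −0.28; 7 lower and 8 higher with total counts): PIP1;5 went from 253 ± 3.08 to 122 ± 2.12 CPM and TIP2;1 (DELTA-TIP) from 781 ± 10.5 to 470 ± 7.47 CPM. Wax and cutin genes gave 14 higher and 3 lower of 23. CER1, an enzyme of alkane formation, fell from 162 ± 3.76 to 67.6 ± 0.506 CPM, while the fatty acid elongase gene KCS1 rose from 64.9 ± 4.15 to 125 ± 1.11 CPM. SWEET sugar carriers gave 4 higher and 5 lower of 10 (6 and 3 with total counts), with SWEET1 up by 1.32 and SWEET4 down by 1.31. The UMAMIT amino acid carriers gave 10 higher and 11 lower of 39 (17 and 4 with total counts), with UMAMIT36 up by 1.55.

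In the lists of RNA and chromatin genes described here, at most 1 member each changed at least 2-fold. SR splicing factors gave 8 higher and 7 lower of 20 (14 and 4 with total counts); SR34b measured 27.1, 27.3 and 28.0 CPM in Col and 11.2, 11.6 and 12.2 CPM in thp1-5 and RSZ22a measured 25.6, 27.7 and 28.5 CPM in Col and 54.6, 52.2 and 47.2 CPM in thp1-5. RNA decay genes gave 7 higher and 6 lower of 20 (16 and 1 with total counts), with the deadenylase gene CAF1a at 2.47, 2.79 and 2.25 CPM in Col and 6.54, 7.56 and 6.54 CPM in thp1-5 and the exosome subunit gene RRP4 up by 0.92. RNA polymerase II subunits gave 2 higher and 4 lower of 15 (8 and 1 with total counts), and NRPB1, the largest subunit, went from 158 ± 5.79 to 124 ± 1.49 CPM. With total counts the call of NRPB1 was lost (−0.06, adjusted p = 0.102 by edgeR). Of 26 proteasome subunits 8 were lower and 5 higher, with sizes up to 0.25, and 22 were higher with total counts, so their direction rests on the scaling. DNA methylation genes gave 12 higher and 3 lower of 27 (23 and 1 with total counts). The demethylase gene DML3 fell from 9.37 ± 0.759 to 4.25 ± 1.21 CPM, and VIM3 rose by 0.67. Polycomb and remodelling genes gave 7 higher and 10 lower of 25 (15 and 5 with total counts). Among them the demethylase gene JMJD5 measured 10.9, 11.4 and 12.4 CPM in Col and 4.53, 5.64 and 4.92 CPM in thp1-5 and ATX1 rose by 0.74.

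The named targets of microRNA families, the subject of the series title, did not share a direction. All tested genes rose for miR159, miR171 and miR393, with 2, 3 and 3 members, and 5 of 6 for miR396, whose targets are growth-regulating factors. AFB3, an auxin receptor and target of miR393, measured 60.5, 55.2 and 57.9 CPM in Col and 129, 129 and 126 CPM in thp1-5, with 31.4% of its exonic bases shared. HAM3, of miR171, rose by 0.61, MYB65, of miR159, by 0.99, ARF10, of miR160, by 0.83 and REV, of miR166, by 0.48. Targets of miR160, of miR165 and miR166, and of miR167 rose in 2 of 3, 3 of 5 and 2 of 3 cases, and 0 fell. Those of miR172 gave 4 higher and 2 lower of 6 (4 and 1 with total counts). Those of miR397, miR398 and miR408 gave 5 and 2 of 10 (7 and 1), and those of miR164 1 and 1 of 5 (1 and 0). Targets of other microRNAs gave 2 higher and 5 lower of 8. GRF8, of miR396, rose from 0.475 ± 0.232 to 1.34 ± 0.0737 CPM. Targets of miR169 and miR319 tended down, with 4 of 7 and 3 of 5 lower, but 2 of each were higher with total counts and 0 and 1 lower. TCP4, of miR319, measured 44.2, 39.8 and 42.4 CPM in Col and 33.8, 29.4 and 31.4 CPM in thp1-5. Targets of miR156 gave 4 higher and 4 lower of 10 (6 and 2 with total counts); SPL3 fell by 1.51, with 97.3% of its exonic bases shared with another locus. Of 4 sulfur-related miR395 targets 1 rose and 2 fell, each at least 2-fold (2 and 2 with total counts). Among those that fell SULTR2;1, a sulfate transporter, measured 242, 243 and 255 CPM in Col and 106, 114 and 108 CPM in thp1-5.

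Loci typed as unclassified non-coding RNA fell more often than they rose. Of 109 tested loci that the reference types as unclassified non-coding RNA, 54 fell (49.5%) and 12 rose (11.0%), with a median of −0.44 (41 and 26 with total counts). At a mean of at least 10 CPM, 19 of 23 fell and 1 rose (17 and 2 with total counts). Of 13158 protein-coding loci of that level 39.7% were lower and 33.0% higher (2536 and 8025 loci with total counts). Among the 77 that share no exonic base with another locus, 41 fell and 8 rose (32 and 17 with total counts). The following loci were picked from these after their values were seen. AT3G54366 measured 27.6, 32.7 and 29.8 CPM in Col and 5.87, 4.46 and 4.71 CPM in thp1-5, AT2G14878 measured 42.0, 49.5 and 47.7 CPM in Col and 11.1, 12.2 and 11.3 CPM in thp1-5 and AT4G36648 measured 67.3, 78.8 and 69.2 CPM in Col and 25.3, 22.8 and 21.6 CPM in thp1-5. GUT15 (AT2G18440) measured 154, 165 and 158 CPM in Col and 78.6, 82.6 and 75.9 CPM in thp1-5. AT4G04223 went the other way, at 2.29, 3.38 and 2.32 CPM in Col and 6.47, 7.73 and 7.94 CPM in thp1-5. Long non-coding RNA loci gave 248 higher and 296 lower of 1074 (452 and 153 with total counts), but most share bases with another locus, and of the 43 that share none 22 fell and 4 rose (19 and 5 with total counts). Since the strand setting of the counting is not given, reads of overlapping or antisense loci cannot be told apart. AT5G04905 and AT5G28919, on opposite strands, share 93.5% and 100% of their exonic bases and had equal CPM in every library. Each had 1215 counts over the Col and 648 over the thp1-5 libraries, so reads there were counted at both loci.

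**Figure D3:**
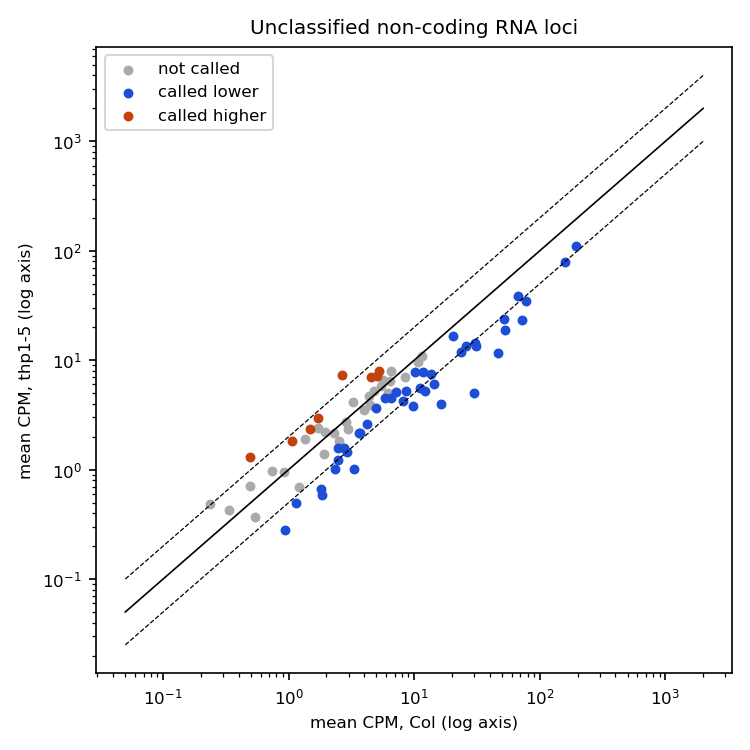
Mean CPM over the 3 Col libraries (horizontal) and the 3 thp1-5 libraries (vertical), both on log axes, for tested unclassified non-coding RNA loci that share no exonic base with another locus, with lines at equal levels and at a 2-fold difference. Of the 77 loci, 41 were called lower and 8 higher, and 32 and 17 with total counts.

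Protein-coding loci without introns moved up more often. Of 2935 with 1 exon, 42.5% rose and 20% fell (median 0.21), and the median went to 0.07 at 2 exons, 0.00 at 3 to 4 exons and −0.02 at 16 or more, where 29.8% rose and 38.1% fell. With total counts the medians were 0.50 at 1 exon and 0.26 at 16 or more. Abundance went along with it: over 5 equal bins of mean CPM, from the lowest to the highest, the median ran from 0.19 to −0.18. Within these bins the 1-exon loci still stood higher, at 0.30 against 0.16 for the others in the lowest bin, 0.26 against 0.12, 0.19 against 0.05, 0.15 against −0.01, and −0.03 against −0.19 in the highest. Loci with 9 or more exons were not below the loci with 2 or more, a set that includes them, at a like level. Their medians were 0.23, 0.20, 0.07, −0.01 and −0.17 over the same bins. A correction for exonic length left the 1-exon median at 0.22. With it the loci with 9 or more exons stood at 0.18, 0.14, 0.02, −0.07 and −0.23 over the bins of mean CPM. Those with 2 or more stood at 0.16, 0.12, 0.04, −0.04 and −0.21, so the order turned from the middle bin upward. By exonic length the medians ran from −0.10 in the shortest of 5 bins to 0.08 in the longest, and with total counts from 0.19 to 0.37. These are descriptions over genes, which are not independent replicates.

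**Figure D4:**
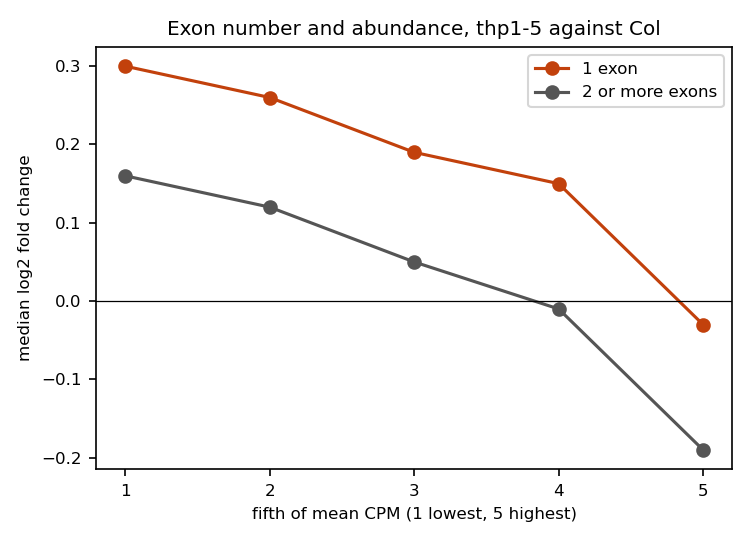
Median log2 fold change of thp1-5 against Col for protein-coding loci with 1 exon and with 2 or more exons in 5 bins of mean CPM, from the lowest to the highest. Points stand for medians over loci, and the 1-exon loci lie above the others in each of the 5 bins.

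Genes that changed at least 2-fold were in part neighbours. In the order of the reference, 52 runs of at least 3 adjacent tested loci were all called at least 2-fold in 1 direction, 22 higher and 30 lower, with 167 loci in all and at most 5 in a run. In 23 of the runs no locus shared exonic bases with another. This does not show that their reads were counted apart. AT3G28290 and AT3G28300, side by side in 1 run without shared bases, had equal CPM in every library. Each had 252 counts over the Col libraries and 103 over the thp1-5 libraries. Whether reads of similar neighbours were counted more than once in other runs was not tested. A run of 5 on chromosome 1 held MLP34 and MLP43, of the major latex protein family, with 3 loci between them. MLP34 measured 1420, 1370 and 1390 CPM in Col and 415, 393 and 401 CPM in thp1-5 and MLP43 measured 211, 206 and 216 CPM in Col and 107, 105 and 105 CPM in thp1-5. A run of 5 on chromosome 3 held the P450 genes CYP71B23, CYP71B3 and CYP71B24, which fell by 1.33, 1.26 and 1.19. Another on chromosome 4 held AT4G30650, a low temperature and salt responsive family member, at 130, 126 and 134 CPM in Col and 55.2, 59.7 and 60.7 CPM in thp1-5, with 2 of its 5 loci sharing over 50% of their bases.

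Among the rising runs, AT3G21010 to AT3G21040 on chromosome 3 held 4 adjacent pseudogene loci without a named product, all called higher, with AT3G21010 at 1.41, 1.1 and 1.72 CPM in Col and 3.27, 3.61 and 3.87 CPM in thp1-5. AT1G47395 and AT1G47400 on chromosome 1, without a name in the reference, measured 4.5, 3.09 and 2.62 CPM in Col and 23.1, 24.5 and 25.2 CPM in thp1-5 and 1.76, 1.99 and 2.55 CPM in Col and 14.3, 14.8 and 14.8 CPM in thp1-5, and the 2 non-coding loci next to them rose as well. PSK1, a phytosulfokine precursor, bZIP58 and a pair of defensin-like genes formed another, with AT1G13609 at 2.2, 4.12 and 2.85 CPM in Col and 18.1, 18.6 and 18.1 CPM in thp1-5. Shorter runs, picked after their values were seen, held VSP2, VSP1 and BZIP9 on chromosome 5, PGIP2, CYP93D1 and CYP712A2 on chromosome 5, and AT5G57500, XTH12 and XTH13 on chromosome 5, so some genes named above lie side by side.

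Promoters were compared over the 300 bases upstream of 20608 protein-coding loci. The I-box stood in 14.4% of all, in 19.5% of those of genes called at least 2-fold lower and in 10.6% of those at least 2-fold higher. At 4-fold the shares were 25.8% of 120 lower and 6.83% of 161 higher genes. The G-box stood in 7.94% of all, 12.3% at least 2-fold lower and 6.93% at least 2-fold higher, and the ABRE core ACGTGNC, which can overlap a G-box, in 10.4%, 13.0% and 9.14%. The evening element AAAATATCT, a motif of clock-controlled genes, stood in 2.89%, 4.30% and 2.01%. The W-box leaned the other way, with 31.9% of all, 28.3% at least 2-fold lower and 36.6% at least 2-fold higher. Site II, TGGGCC, bound by TCP factors, was rarer at both ends, with 16.9% of all, 9.07% lower and 10.1% higher. P1BS stood in 6.56%, 8.72% and 6.93%, but at 4-fold in 11.2% of the higher and 6.67% of the lower genes. The MSA core CTAACGG of mitotic genes stood in 1.46%, 0.465% and 1.51%. These shares were not tested.

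**Figure D5:**
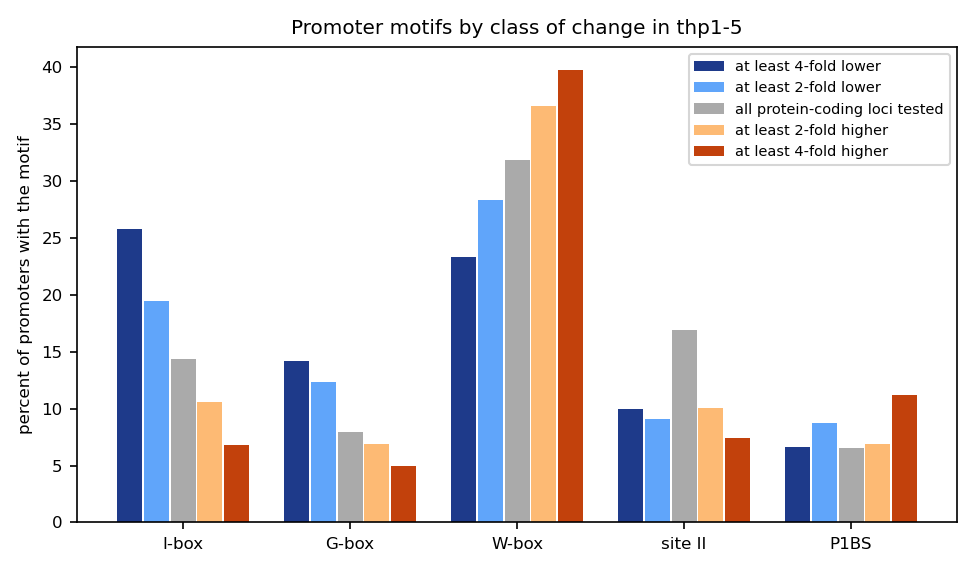
Percent of promoters (300 bases upstream) that hold a motif on either strand, by class of change in thp1-5. The I-box share is highest among genes at least 4-fold lower (25.8%) and lowest among those at least 4-fold higher (6.83%), and the W-box share runs the other way, from 23.3% to 39.8%.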

How the data were processed

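The labels describe polyadenylated RNA of whole seedlings, prepared with NEB kits and sequenced on a HiSeq 2500. The authors deposited 1 count per gene and library, with the exonic length of the gene. STAR and DESeq2 are named, per the submitters' processing notes, without versions. The sources used here name no annotation, build, counter or strand setting. Counts were fitted with edgeR 4.0.16 (limma 3.58.1, R 4.3.3) as deposited: TMM factors, filterByExpr with a minimum count of 10, and 1 quasi-likelihood model of 3 groups over 9 libraries, which leaves 6 residual degrees of freedom. The third group, labelled sac3bc, entered the filter, the scaling and the estimate of spread but no contrast reported here. The adjusted p (Benjamini-Hochberg, over all 22400 genes tested) had a threshold of 0.05. The SE of a log2 fold change is its size divided by the root of the F value. The fit was tested on simulated data. The members and lists were chosen with earlier results of these data known.

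Named genes are THP1 and the SAC3 genes, 12 rising and 12 falling genes of the largest fold change (with a symbol, under 50% shared exonic bases, at least 10 CPM in the higher group and no overlap), the 6 and 6 with the largest CPM differences, loci near 0 in 1 group, up to 4 called members of each list, 1 called target of each microRNA family, and loci of the 6 longest runs. The 6 and 6 were called genes that also had a symbol and under 50% shared exonic bases. Others were named after their values were seen. Symbols, exons and locus types are those of the RefSeq annotation of TAIR10.1. Gene families were gathered by symbol, and 12 loci with another annotated product were left out after values were seen. DESeq2 1.42.0, other scalings and filters, a length correction, a replicate block, the fit of 6 libraries and the omission of each library were tried as alternatives. No gene count has a molecular identifier behind it, so counting intervals cover counting error alone.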

Additional observations from a re-analysis of the deposited data

How the results depend on the processing

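Scaling had the widest effect. With total counts 12534 genes were called higher and 3615 lower, 2282 and 552 of them at least 2-fold, and 80 gene lists had more members higher than lower against 12 the other way. The medians then became 0.19 for the shortest and 0.37 for the longest bin (of 5) of exonic length, 0.50 for 1-exon loci, 0.26 for loci with 16 or more exons and −0.15 for unclassified non-coding RNA loci. Uncalled genes turned sign with total counts: EER5 to 0.18, CASP1 to 0.13, SULTR4;2 to 0.28, SAC3C to 0.11 and SULTR1;1 to 0.08, of which SULTR4;2 gained a call. The calls of ORC4 (−0.18) and NRPB1 (−0.06) were lost. The length correction gave medians of 0.00 and 0.01 for the shortest and longest bins, 0.22 for 1-exon loci and −0.08 for 16 or more exons, and turned PLT2 to −0.04 and FMA to −0.05. By construction it removes the trend with length. For the other changes the cause was not tested, except where fewer loci entered.

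Without loci that share exonic bases 9432 genes were called and 4644 were lower, 26 runs were counted, and the medians were −0.08 for the shortest bin, 0.25 for 1 exon, −0.03 for 16 or more exons and −0.52 for unclassified non-coding RNA. At a mean of at least 1 CPM there were 34 runs. DESeq2 size factors gave 0.20 for 1 exon and −0.03 for 16 or more exons, and the DESeq2 test −0.03 for the latter. The fit of 6 libraries gave 0.20 for 1 exon and 0.09 for the longest bin, and no filter gave −0.09 for the shortest. Leaving out 1 library at a time gave 13363 to 13613 calls, 6615 to 6797 higher and 6747 to 6828 lower, with 1106 to 1158 and 1016 to 1089 at least 2-fold and 52 to 58 runs. Lists with more members higher numbered 51 to 56 and with more lower 32 to 35. Medians ran from −0.10 to −0.08 (shortest bin), 0.08 to 0.09 (longest), 0.21 to 0.22 (1 exon), −0.03 to −0.02 (16 or more exons) and −0.47 to −0.37 (unclassified non-coding RNA). Uncalled genes near 0 changed sign without 1 library: PLT2 to −0.03 or −0.07, SULTR4;2 to 0.00, 0.02 or 0.03, FMA to 0.00 or −0.01 and CHLI2 to −0.01. Over all omissions PLT2 reached 0.14, SULTR4;2 −0.05, FMA 0.10 and CHLI2 0.04 at the other end.

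With the replicate number as a block 14259 genes were called, 7147 higher and 7112 lower, with 1107 and 1013 at least 2-fold and 52 runs. The deviations of same-numbered libraries correlated at 0.0193, 0.0375 and 0.0148, so the numbers are not taken to pair the samples. Of 2962 combinations of a named gene and an alternative, 2935 kept direction and call, 4 lost the call, 7 gained one and 16 changed sign. Depth limits genes under about 1 CPM, where SEs were large, such as 0.49 for the fall of AT3G54510 by 1.28. Some changes there were far larger than their SE, such as the rise of AT1G47915 by 6.85 (SE 1.1).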
